A study of Mus musculus with 20 samples.

Results

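The genes described here are 7 regulators and markers of cell cycle arrest and senescence: the INK4 family inhibitors Cdkn2a, Cdkn2b and Cdkn2c, the CIP/KIP family inhibitors Cdkn1a and Cdkn1b, the secreted stress factor Gdf15 and the nuclear lamina gene Lmnb1. They were chosen by name, and all 7 were found among the 23457 genes counted in each library and passed the filter on low counts. Ovarian RNA of 20 female Ames dwarf stock mice was sequenced, with 5 libraries in each of 4 groups: normal mice (N/df) at 6 and 22 months of age and dwarf mice (df/df) at the same ages. Dwarf mice carry the df mutation on both chromosomes and in every tissue, and lack growth hormone, prolactin and thyroid-stimulating hormone from the pituitary. The normal mice carry the same allele on a single chromosome, so no group is free of it. The labels name no treatment. Levels are given as CPM, the usual read count normalised to the library's total over genes, and in bulk tissue fewer cells of a type and less RNA per cell cannot be told apart.

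INK4 proteins bind the kinases CDK4 and CDK6 and keep them from phosphorylating the retinoblastoma protein, which then holds E2F factors silent and the cell in G1. CIP/KIP proteins bind cyclin and CDK complexes more broadly: p21, from Cdkn1a, is a main transcriptional target of p53, and p27, from Cdkn1b, restrains the growth of granulosa cells and the activation of primordial follicles in the mouse ovary. Cells that enter senescence typically carry more p16, from Cdkn2a, or more p21, and less lamin B1, from Lmnb1, and mouse oocytes and ovarian somatic cells use these genes in ordinary development as well.

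Library totals ranged from 1365640 to 36068284 counts. Replicate 2 of the normal 6-month mice stood apart with a summed level of 9067 CPM over 10 oviduct epithelium markers, against 305 to 519 CPM in the rest of its group, and with the lowest granulosa, luteal and oocyte marker sums of the group. Replicate 3 of that group was the shallowest library. Replicate 3 of the normal 22-month mice had 1074 CPM over 11 T and B cell markers, against 31.9 to 109.5 CPM in the rest of its group. Results that rest on these 3 libraries are given with and without them. All 8 luteal markers were detected in every library, and all 9 granulosa markers in every library except normal 6-month replicate 2, where Cyp19a1, encoding aromatase, was at 0; the oocyte marker Figla was at 0 in some libraries of each group except dwarf 6 months. Replicates 1 and 4 of the dwarf 22-month mice were the most alike pair of any group, with a chi-square of 2.42 per degree of freedom over 15913 genes against 11.6 for the next pair; that is more than sampling noise alone gives, but it does not show that they are separate mice. They were kept as 2 libraries as labelled, and calls that are lost when the pair is summed are named.

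The Cdkn2a row of the count tables is a sum over 2 annotated transcripts, which encode unlike proteins. In the deposited annotation (mm10), Cdkn2a lies on the minus strand at chr4:89274473-89294619 and has 2 transcripts that share 643 of 1136 exonic bases (56.6%). The outer start gives p19ARF, which protects p53, and the inner start gives p16INK4a; 286 exonic bases belong to the outer transcript only and 207 to the inner only, so counts of the gene cannot tell p19ARF from p16INK4a. Cdkn2b, which encodes p15INK4b, lies 11669 bases away at chr4:89306289-89311032 on the same strand, with no other annotated gene between them. The 250 bases before each RefSeq start are printed 5′ to 3′ (GRCm38.p6; minus strand at chr4:89294620-89294869, chr4:89282193-89282442 and chr4:89311033-89311282). Capitals mark the GC box GGGCGG and the cAMP response element TGACGTCA, searched on both strands; these motifs do not overlap one another.
Cdkn2a, outer start: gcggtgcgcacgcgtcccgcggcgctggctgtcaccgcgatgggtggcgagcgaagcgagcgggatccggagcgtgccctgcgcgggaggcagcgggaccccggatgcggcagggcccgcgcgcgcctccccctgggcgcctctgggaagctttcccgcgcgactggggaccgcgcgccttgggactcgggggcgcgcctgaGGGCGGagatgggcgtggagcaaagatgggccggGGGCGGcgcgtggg
Cdkn2a, inner start: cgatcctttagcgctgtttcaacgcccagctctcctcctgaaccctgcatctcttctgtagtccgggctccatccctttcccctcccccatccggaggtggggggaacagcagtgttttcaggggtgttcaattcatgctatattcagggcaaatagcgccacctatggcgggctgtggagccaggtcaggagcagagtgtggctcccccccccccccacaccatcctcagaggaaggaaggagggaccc
Cdkn2b: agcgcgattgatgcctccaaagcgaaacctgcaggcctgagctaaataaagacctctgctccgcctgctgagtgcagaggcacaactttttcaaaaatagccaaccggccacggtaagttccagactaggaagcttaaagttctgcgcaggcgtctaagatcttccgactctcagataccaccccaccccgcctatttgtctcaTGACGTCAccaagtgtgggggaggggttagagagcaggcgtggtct
The outer Cdkn2a promoter held 40 CpG pairs, a number reached by 1.31% of 32851 RefSeq promoters of this length, and 2 GC boxes, a motif found in 32.7% of them. The inner promoter held 7 CpG pairs and neither motif. The Cdkn2b promoter held 12 CpG pairs and 1 cAMP response element, which 1.55% of promoters contain. These matches describe letters in a window and say nothing of binding in the ovary.

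Cdkn2a was a low-level gene, and its highest levels were in old normal ovaries. Its levels in normal 6-month libraries were 3.60, 1.24, 1.46, 2.76 and 0.739 CPM in replicates 1 to 5, and in normal 22-month libraries 6.32, 4.04, 8.78, 5.78 and 4.56 CPM. Every old normal library was above every young one, with 8.78 CPM in the lymphocyte-rich replicate 3. The difference was 1.58 ± 0.487 on the log2 scale (± SE) and did not pass the threshold in edgeR's quasi-likelihood test across 16099 genes (adjusted p = 0.0568, with adjusted values under 0.05 called). The CPM of the groups did not overlap for 2.39% of the tested genes in this comparison, and Cdkn2a was the 1 member among them. The difference was 1.21 ± 0.568 (adjusted p = 0.122) without the 3 libraries that stand apart. It was called in DESeq2 (adjusted p = 0.0170) and in edgeR with a block for the replicate number (adjusted p = 0.0376). Of 10 edgeR fits that left out 1 library, 2 called it, without young replicate 1 (adjusted p = 0.0486) or young replicate 2 (adjusted p = 0.0421).

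In dwarf mice Cdkn2a was at 1.06, 1.37, 0.471, 0.703 and 0.416 CPM at 6 months and at 2.80, 1.48, 3.35, 0.627 and 0.926 CPM at 22 months. The dwarf ages overlapped, and the lowest old library, with 7 counts, lay among the young ones (log2 1.14 ± 0.488, adjusted p = 0.135). At 22 months every dwarf library lay below every normal one, in a comparison in which the CPM of the genotypes did not overlap for 7.24% of tested genes, and Cdkn2a was called lower in dwarf ovaries, at 1.84 ± 1.19 CPM (SD, n = 5) against 5.90 ± 1.86 CPM (log2 -1.76 ± 0.480, edgeR adjusted p = 0.0451). This was 1 of 2 members called in a comparison in which 3.81% of tested genes were called. The call is at the edge of the threshold: the adjusted p was 0.0567 (log2 -1.53) without the 3 libraries that stand apart, 0.0817 with the 2 alike dwarf libraries summed, 0.0640 with scaling by library totals alone, 0.0568 with no filter on low counts and 0.163 without the libraries whose titles are numbered 21 to 23. Among fits that left out 1 of these 10 libraries it passed without normal replicate 5 or dwarf replicate 3 and in no other case (range of adjusted p 0.0398 to 0.135). At 6 months the levels of the genotypes overlapped (log2 -1.32 ± 0.495, adjusted p = 0.142).

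The sum of macrophage markers, like Cdkn2a, was highest in old normal ovaries. Summed over 12 measured markers, they ranged from 266 to 609 CPM in normal 6-month libraries and from 573 to 2242 CPM (median 727) in normal 22-month libraries, against 370 to 513 and 428 to 701 CPM in dwarf mice at the same ages. Not every marker had its highest median in old normal ovaries. Csf1r, Cd163 and Mrc1 had medians of 77.5, 4.24 and 13.9 CPM there, against 84.4, 5.99 and 15.5 CPM in old dwarf ovaries. Of these 12 markers, 5 rose with age in normal mice, such as Lyz2, encoding a lysozyme of myeloid cells (log2 2.04 ± 0.357, edgeR adjusted p = 0.00787), and the 12 had a median of 0.25 on the log2 scale with age in dwarf mice; none was at 0 in any library. Of 11 T and B cell markers, 9 rose with age in normal mice. These numbers were 4 and 8 without the 3 libraries that stand apart. Over all tested genes, 6.75% were called with age in normal mice with all libraries and 29.6% without those 3. The part of these cells in the Cdkn2a levels was not tested.

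**Figure D1:**
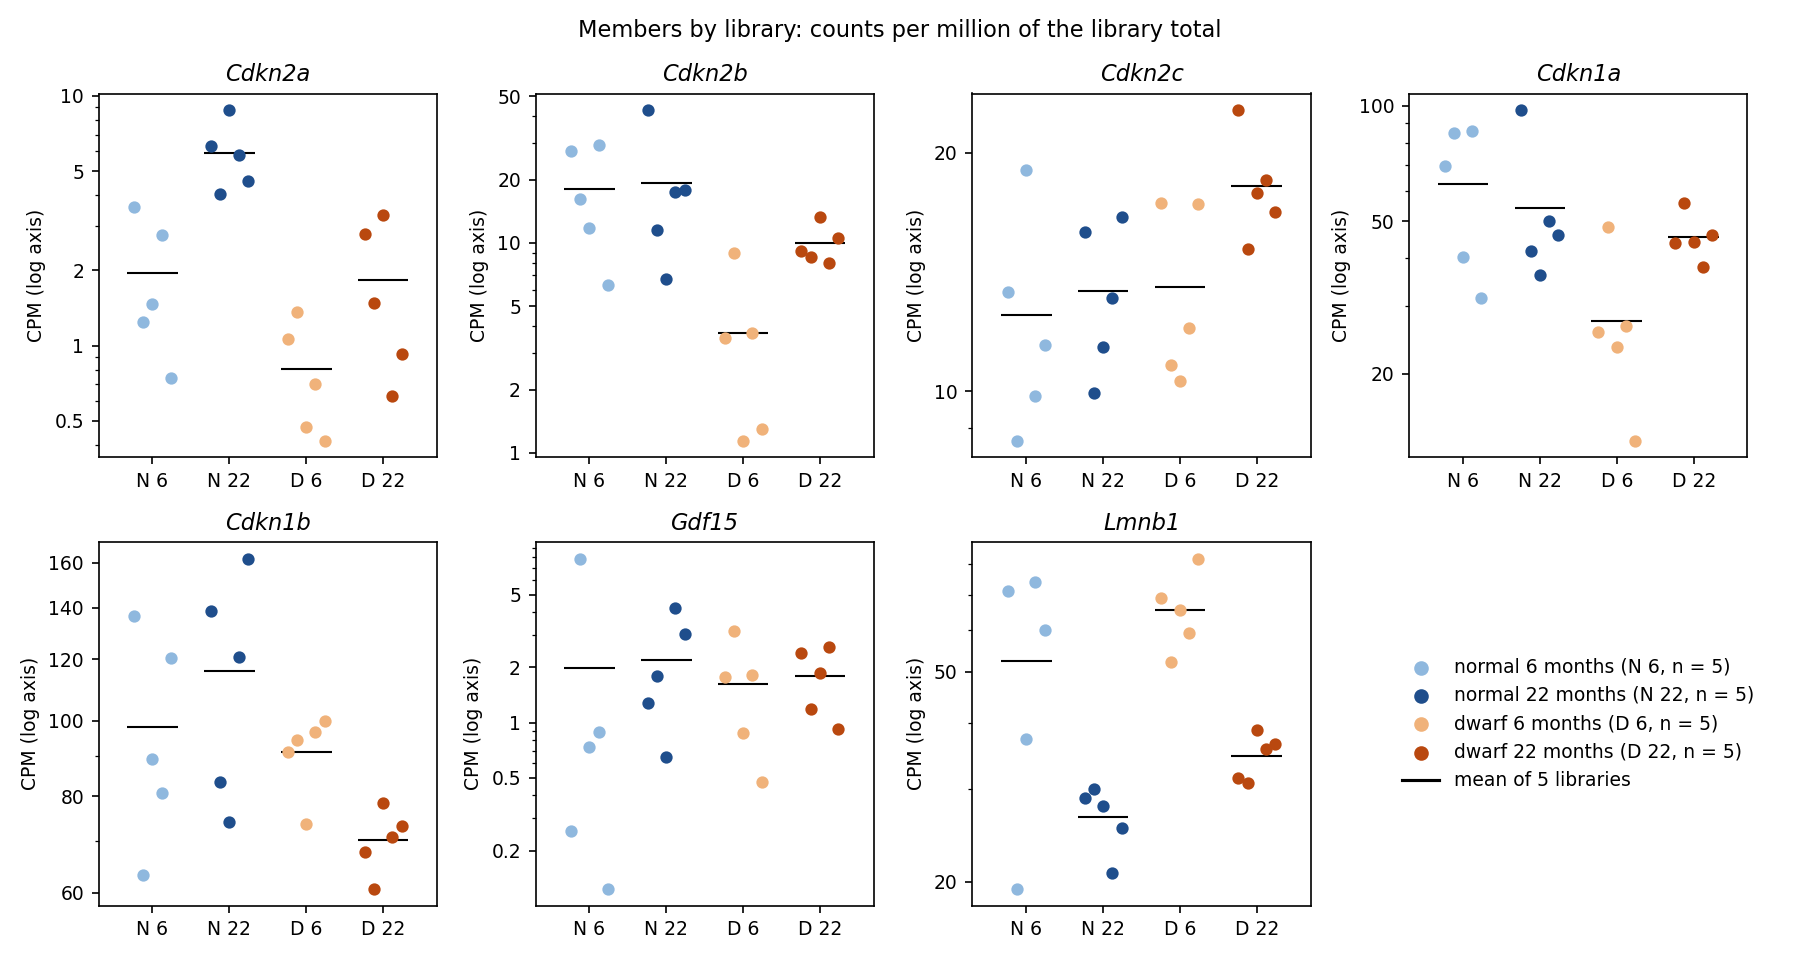
CPM of each of the 7 genes on a log axis, with 1 point per library, for normal (N) and dwarf (D) mice at 6 and 22 months (n = 5 each), and a line at the mean. Cdkn2a in old normal ovaries (4.04 to 8.78 CPM) lies above all other groups, Cdkn2b has its lowest mean in young dwarf ovaries, and within each genotype Lmnb1 is lower at 22 than at 6 months apart from the young normal library at 19.4 CPM.

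Cdkn2b, a gene known in other cells as a target of transforming growth factor beta, was lowest in young dwarf ovaries. It stood at 27.4, 16.2, 11.7, 29.2 and 6.28 CPM in the normal 6-month libraries and at 3.52, 8.96, 1.14, 3.73 and 1.30 CPM in the dwarf 6-month libraries. Only replicate 5 of the normal mice, at 6.28 CPM, lay below the highest dwarf library; no member kept the genotypes fully apart at 6 months, where 5.88% of tested genes did. Cdkn2b was called lower in dwarf mice at 6 months (log2 -2.35 ± 0.539, edgeR adjusted p = 0.0162), 1 of 2 members called where 4.57% of tested genes were called. The difference was -2.48 (adjusted p = 0.0128) without the 3 libraries that stand apart; the call was lost without dwarf replicate 1 (adjusted p = 0.0531) or dwarf replicate 5 (adjusted p = 0.0581), and when only these 10 libraries were fitted (adjusted p = 0.0772).

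At 22 months Cdkn2b stood at 42.9, 11.5, 6.72, 17.5 and 17.9 CPM in normal libraries and at 9.19, 8.60, 13.3, 8.06 and 10.6 CPM in dwarf libraries. The old dwarf libraries lay within a narrow range inside the wide normal one (log2 -1.03 ± 0.517, adjusted p = 0.303). With age the level did not pass the test in dwarf mice (log2 1.38 ± 0.526, adjusted p = 0.0954) or in normal mice (log2 0.06 ± 0.511, adjusted p = 0.961). In dwarf mice it passed without 6-month replicate 2 (edgeR adjusted p = 0.0241) and in DESeq2 (adjusted p = 0.0402). It also passed when only the dwarf libraries were fitted (edgeR adjusted p = 0.0417).

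Within a library, the ratio of Cdkn2a to Cdkn2b counts is free of library scaling, but its counting error grows as counts fall. The ratios were 0.131, 0.0762, 0.125, 0.0948 and 0.118 in normal 6-month libraries and 0.147, 0.351, 1.31, 0.330 and 0.255 in normal 22-month libraries. Each old normal library had a higher ratio than each young one, with the widest gap in the lymphocyte-rich library. The nearest ratios were close, 0.131 from 28 and 213 counts in young replicate 1 and 0.147 from 128 and 870 in old replicate 1. Young replicate 3 held only 2 and 16 counts. In dwarf mice the ratios were 0.152 to 0.412 when young and 0.0778 to 0.304 when old, and overlapped. The ratio of these neighbouring genes thus ranged from 0.0762 to 1.31 in normal ovaries. These ratios are a description, their change with age was not tested, and no share of non-overlapping ratios over other gene pairs was computed.

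Cdkn2c, which encodes p18INK4c, was called in none of the comparisons. It lies at chr4:109660876-109665372 on the minus strand. Its group means were 12.5 ± 4.07, 13.4 ± 2.84, 13.5 ± 3.46 and 18.2 ± 2.80 CPM (SD, n = 5) in normal mice at 6 and 22 months and dwarf mice at 6 and 22 months. All neighbouring groups in this order overlapped, and the largest of its differences, dwarf over normal at 22 months, was 0.35 ± 0.243 on the log2 scale (adjusted p = 0.496). The remaining INK4 gene, Cdkn2d, and the remaining CIP/KIP gene, Cdkn1c, which are not among the 7 genes, were called in none of the comparisons in edgeR; the smallest of their adjusted p-values was 0.348, for Cdkn1c with age in dwarf mice.

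Cdkn1a, like Cdkn2b, was lower in dwarf than in normal ovaries at 6 months. The gene lies at chr17:29090986-29100722 on the plus strand. The promoter before its second RefSeq start (GRCm38.p6, plus strand, chr17:29093519-29093768) is shown because Cdkn1a and Cdkn2b were called in the same comparison; it holds 2 GC boxes, in capitals, and no cAMP response element, and the promoter before the first start, chr17:29090729-29090978, holds neither motif.
Cdkn1a, second start: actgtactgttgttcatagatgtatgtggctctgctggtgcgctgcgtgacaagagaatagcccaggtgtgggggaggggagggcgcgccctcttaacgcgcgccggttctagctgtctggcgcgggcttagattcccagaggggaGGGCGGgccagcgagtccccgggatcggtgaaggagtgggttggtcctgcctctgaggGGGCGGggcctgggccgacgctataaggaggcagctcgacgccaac
Its levels were 69.6, 85.0, 40.3, 85.7 and 31.5 CPM in normal 6-month libraries and 25.7, 48.2, 23.5, 26.6 and 13.4 CPM in dwarf 6-month libraries. The highest dwarf library, replicate 2, lay above the 2 lowest normal libraries. The difference was called (log2 -1.24 ± 0.310, edgeR adjusted p = 0.0271), with -1.16 (adjusted p = 0.0431) without the 3 libraries that stand apart. It was lost without normal replicate 4 or without any of dwarf replicates 1, 3, 4 and 5 (adjusted p 0.0542 to 0.0924), and when only the 10 libraries were fitted (adjusted p = 0.101).

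At 22 months Cdkn1a was at 97.5, 41.7, 36.3, 49.9 and 46.1 CPM in normal libraries and at 43.8, 55.9, 44.0, 37.9 and 45.9 CPM in dwarf libraries. The genotypes overlapped almost fully apart from replicate 1 of the normal mice (log2 -0.34 ± 0.305, adjusted p = 0.637). The change with age was 0.67 ± 0.307 (adjusted p = 0.159) in dwarf mice and -0.23 ± 0.306 (adjusted p = 0.694) in normal mice on the log2 scale, and the difference between these responses was 0.90 ± 0.433 (unadjusted p = 0.0519, adjusted p = 0.716). In GENCODE M21, which has the same build, 90 exonic bases of Cdkn1a overlap the antisense locus AC167363.2; the strand setting of the counting is not stated in the labels.

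Luteal and steroidogenic markers were also lower in young dwarf ovaries. Summed over 8 markers, they ranged from 250 to 14061 CPM in normal 6-month libraries, with a median of 11049 CPM, and from 1940 to 3508 CPM in dwarf libraries. Of the 8 markers, 4 were called lower in dwarf mice at 6 months and 3 at 22 months, where neither Cdkn2b nor Cdkn1a was called, and 7 and 5 without the 3 libraries that stand apart. Over all tested genes, 4.57% and 3.81% were called at 6 and 22 months, and 12.2% and 10.8% without those libraries. Examples at 6 months are Akr1c18, the progesterone-degrading enzyme of regressing corpora lutea (0.990 ± 0.398 against 161 ± 148 CPM, SD, n = 5), and Cyp11a1, the first enzyme of steroid synthesis (165 ± 95.5 against 2501 ± 1538 CPM). The normal library with the lowest luteal sum, replicate 2 at 250 CPM, had 16.2 CPM of Cdkn2b and 85.0 CPM of Cdkn1a, inside the range of its group for both. The part of luteal tissue in these differences was not tested.

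Cdkn1b was the most abundant of the 7 genes per length of transcript and was called lower in old dwarf ovaries. The gene lies at chr6:134920401-134925525 on the plus strand. Its levels at 22 months were 139, 83.3, 74.2, 121 and 162 CPM in normal libraries and 67.8, 60.7, 78.4, 70.8 and 73.2 CPM in dwarf libraries. Normal replicate 3, at 74.2 CPM, was the 1 normal library inside the dwarf range. The difference was called (log2 -0.80 ± 0.203, edgeR adjusted p = 0.0322) and was -0.91 (adjusted p = 0.00340) without the 3 libraries that stand apart. With all libraries it depended on the sample: fits without 1 of these 10 libraries kept the call only without normal replicate 2 or 3 (adjusted p 0.0180 to 0.0978), and it was lost when libraries were scaled by their totals alone (adjusted p = 0.0639) or the 2 alike dwarf libraries were summed (adjusted p = 0.0947).

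At 6 months Cdkn1b stood at 136, 63.3, 89.3, 80.6 and 120.5 CPM in normal libraries and at 91.2, 94.6, 73.7, 96.9 and 99.98 CPM in dwarf libraries. The dwarf libraries lay inside the range of the normal ones (log2 -0.14 ± 0.202, adjusted p = 0.771). With age the difference was -0.46 ± 0.202 in dwarf mice (adjusted p = 0.144) and 0.20 ± 0.202 in normal mice (adjusted p = 0.580). When only the dwarf libraries were fitted, Cdkn1b was called lower with age (log2 -0.42, edgeR adjusted p = 0.00942). The difference between the age responses, -0.66 ± 0.286, was the smallest p of the 7 genes for that comparison (unadjusted p = 0.0322, adjusted p = 0.667). In it 0% of genes were called by edgeR, with 1127 of 16099 genes at an unadjusted p under 0.05 and 17 genes called by DESeq2; 202 of 16366 genes (1.23%) were called without the 3 libraries that stand apart, and no member was among them.

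Per kilobase of annotated exon, Cdkn1b had the highest level of the 7 genes in 17 of 20 libraries and Cdkn1a in the other 3. The means over all libraries were 39.0 CPM per kilobase for Cdkn1b, 23.4 for Cdkn1a, 15.7 for Lmnb1, 13.0 for Cdkn2c, 9.18 for Cdkn2b, 2.31 for Cdkn2a and 1.75 for Gdf15. Gdf15 was the lowest in 12 libraries and Cdkn2a in 8. The ratio of Cdkn1a to Cdkn1b counts within a library was 0.134 to 0.510 in dwarf 6-month libraries and 0.535 to 0.922 in dwarf 22-month libraries, without overlap. In normal mice it was 0.262 to 1.34 at 6 months and 0.284 to 0.703 at 22 months, with wide overlap. The proportion of p21 to p27 message was thus higher in each old dwarf ovary than in each young one. Neither gene passed the test with age in the fit over all 4 groups. The nearest ratios were close, 0.510 from 812 and 1593 counts in young replicate 2 and 0.535 from 423 and 790 in old replicate 4. This was not tested as a ratio, and the CPM of 22.1% of tested genes did not overlap between the ages of dwarf mice.

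**Figure D2:**
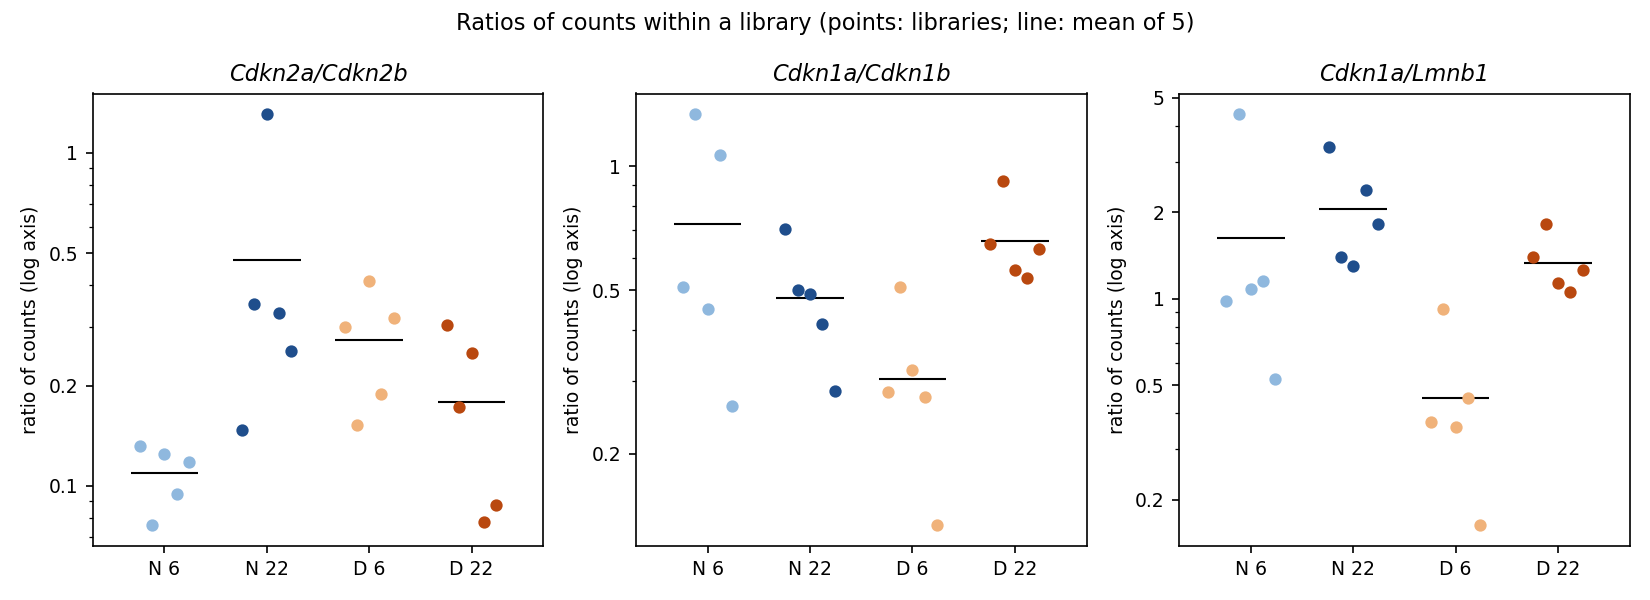
Ratios of counts within a library for Cdkn2a to Cdkn2b, Cdkn1a to Cdkn1b and Cdkn1a to Lmnb1 on log axes, with 1 point per library and a line at the mean of 5. The Cdkn2a to Cdkn2b ratio separates the ages in normal mice (0.0762 to 0.131 against 0.147 to 1.31), and the ratios of Cdkn1a separate the ages in dwarf mice (to Cdkn1b, 0.134 to 0.510 against 0.535 to 0.922).

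Lmnb1, which encodes the B-type lamin of the nuclear envelope, was the 1 member called with age, and it fell in both genotypes. The gene lies at chr18:56707813-56753424 on the plus strand. In dwarf mice its levels were 68.9, 52.2, 65.4, 59.1 and 81.9 CPM at 6 months and 31.4, 30.7, 38.8, 35.7 and 36.5 CPM at 22 months. Each old dwarf library lay below each young one, in a comparison in which the CPM of 22.1% of tested genes did not overlap between the ages. Lmnb1 fell by 1.01 ± 0.251 on the log2 scale (edgeR adjusted p = 0.0157), in a comparison where 11.2% of genes were called. The call was lost without dwarf 6-month replicate 5 (adjusted p = 0.0609).

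In normal mice Lmnb1 stood at 71.0, 19.4, 37.3, 74.1 and 60.1 CPM at 6 months and at 28.9, 29.97, 27.8, 20.8 and 25.3 CPM at 22 months. The ages overlapped because of replicate 2 of the young mice, the oviduct-rich library, which had the lowest Lmnb1 level of all 20 libraries. The level fell by 0.99 ± 0.253 on the log2 scale (edgeR adjusted p = 0.0249), where 6.75% of genes were called. Without the 3 libraries that stand apart it fell by 1.32 ± 0.171 (adjusted p = 8.79e-05), and in dwarf mice by 0.97 ± 0.143 (adjusted p = 0.000188). The call in normal mice was lost without young replicate 4 (adjusted p = 0.0599) or old replicate 3 (adjusted p = 0.0576), when only these 10 libraries were fitted (adjusted p = 0.239), and without the libraries whose titles are numbered 21 to 23 (adjusted p = 0.0978). The age responses of the genotypes differed by -0.02 ± 0.354 (adjusted p = 0.999), an error too wide to show that they were alike.

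At 22 months each dwarf library had a higher Lmnb1 level than each normal one (34.6 ± 3.45 against 26.6 ± 3.64 CPM, SD, n = 5), in a comparison in which 7.24% of tested genes did not overlap, but the difference did not pass the test (log2 0.29 ± 0.251, adjusted p = 0.622). At 6 months the genotypes overlapped (log2 0.30 ± 0.250, adjusted p = 0.576).

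Genes of dividing cells fell with Lmnb1. Of 28 proliferation genes, which do not include Lmnb1, 18 fell and 0 rose with age in normal mice (median log2 fold change -1.40, against -0.02 over all tested genes), and 23 fell and 0 rose in dwarf mice (median -1.65 against 0.00). With the 3 libraries that stand apart left out, 28 and 27 fell; in that fit 29.6% and 28.7% of all tested genes were called with age in normal and dwarf mice. Examples are Aurka, a kinase of the mitotic spindle, at 19.9 and 5.24 CPM in young and old normal mice, and Cdc20, an activator of the anaphase-promoting complex, at 52.1 and 15.8 CPM in young and old dwarf mice. Summed over the list, levels were 291 to 1376 CPM and 341 to 676 CPM in normal mice at 6 and 22 months, and 851 to 1269 CPM and 430 to 481 CPM in dwarf mice. The young normal library with the lowest Lmnb1 level also had the lowest proliferation sum, 291 CPM. Its granulosa marker sum was 167 CPM, against 2499 to 4601 CPM in the rest of its group, and in old normal libraries that sum was 365 to 1596 CPM. The part of dividing granulosa cells in the Lmnb1 levels was not tested.

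Other genes of the lamina were called as well. Over all tested genes, 6.75% and 11.2% were called with age in normal and dwarf mice. Of 14 genes of the nuclear lamina and its partners, Lmnb1 included, 3 fell and 0 rose with age in each genotype: Lmnb2, the other B-type lamin gene, and Lmnb1 in both, with Banf1, a DNA-bridging protein, in normal mice and Lemd2, an inner membrane protein, in dwarf mice. Lmnb2 fell by 0.68 ± 0.130 (edgeR adjusted p = 0.00902) in normal and by 0.74 ± 0.129 (adjusted p = 0.00234) in dwarf mice on the log2 scale. The list had 2 rises and 4 falls in normal mice and 2 rises and 5 falls in dwarf mice when the 3 libraries that stand apart were left out. That fit called 29.6% and 28.7% of all tested genes with age in normal and dwarf mice. With all libraries none of the 14 was called between genotypes at either age, where 4.57% and 3.81% of all tested genes were called at 6 and 22 months. Without the 3 libraries 1 was lower in dwarf mice at 22 months, where 10.8% of all tested genes were called.

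Gdf15, a secreted factor of the transforming growth factor beta superfamily that rises with cell stress and is used as a senescence marker, was barely detected in young normal ovaries outside a single library. It lies at chr8:70629394-70631635 on the minus strand. Its levels in normal 6-month libraries were 0.257, 7.86, 0.732, 0.892 and 0.123 CPM, from 2, 108, 1, 20 and 2 counts, and in normal 22-month libraries 1.28, 1.80, 0.648, 4.24 and 3.04 CPM. The young library at 7.86 CPM was the oviduct-rich replicate 2, and 3 of the other 4 had fewer than 3 counts. Over all libraries the age difference was 0.00 ± 0.733 on the log2 scale (adjusted p = 0.998); without the 3 libraries that stand apart it was 2.48 ± 0.700 (adjusted p = 0.0136), and without replicate 2 alone it was 2.19 (adjusted p = 0.0246). This one library therefore decides whether Gdf15 is called with age in normal mice.

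In dwarf mice Gdf15 was at 1.78, 3.15, 0.875, 1.83 and 0.471 CPM at 6 months and at 2.40, 1.19, 1.86, 2.60 and 0.926 CPM at 22 months. The ages overlapped throughout (log2 0.11 ± 0.784, adjusted p = 0.942). Between genotypes the differences were -0.43 ± 0.787 at 6 months (adjusted p = 0.830; 1.81 without the 3 libraries that stand apart, adjusted p = 0.0832) and -0.31 ± 0.794 at 22 months (adjusted p = 0.912). The counts behind these levels are small, and the exact 95% binomial interval of the lowest young normal library reached from 0.0149 to 0.445 CPM, for counting error only.

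Oviduct epithelium markers followed Gdf15 in some libraries and not in others. The 10 markers summed to 305 to 9067 CPM in normal 6-month libraries and 3142 to 5538 CPM in normal 22-month libraries, and to 299 to 2701 and 3036 to 5074 CPM in dwarf libraries; none was at 0 in any library. None of the 10 passed the test with age in normal mice over all libraries (median log2 1.04), and all 10 rose without the 3 libraries that stand apart (median log2 4.26). That fit called 29.6% of all tested genes with age in normal mice. The library with the highest sum was the one with the highest Gdf15 level, and among young dwarf libraries the 2 with sums of 299 and 311 CPM had the 2 lowest Gdf15 levels. In dwarf mice each old library had a higher sum than each young one while Gdf15 overlapped, and in old normal replicate 3 a sum of 3510 CPM stood beside 0.648 CPM of Gdf15. The most prominent marker, Ovgp1, encoding the oviduct glycoprotein, had medians of 46.1 and 1723 CPM in normal mice at 6 and 22 months. The part of oviduct tissue in the Gdf15 levels was not tested.

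**Figure D3:**
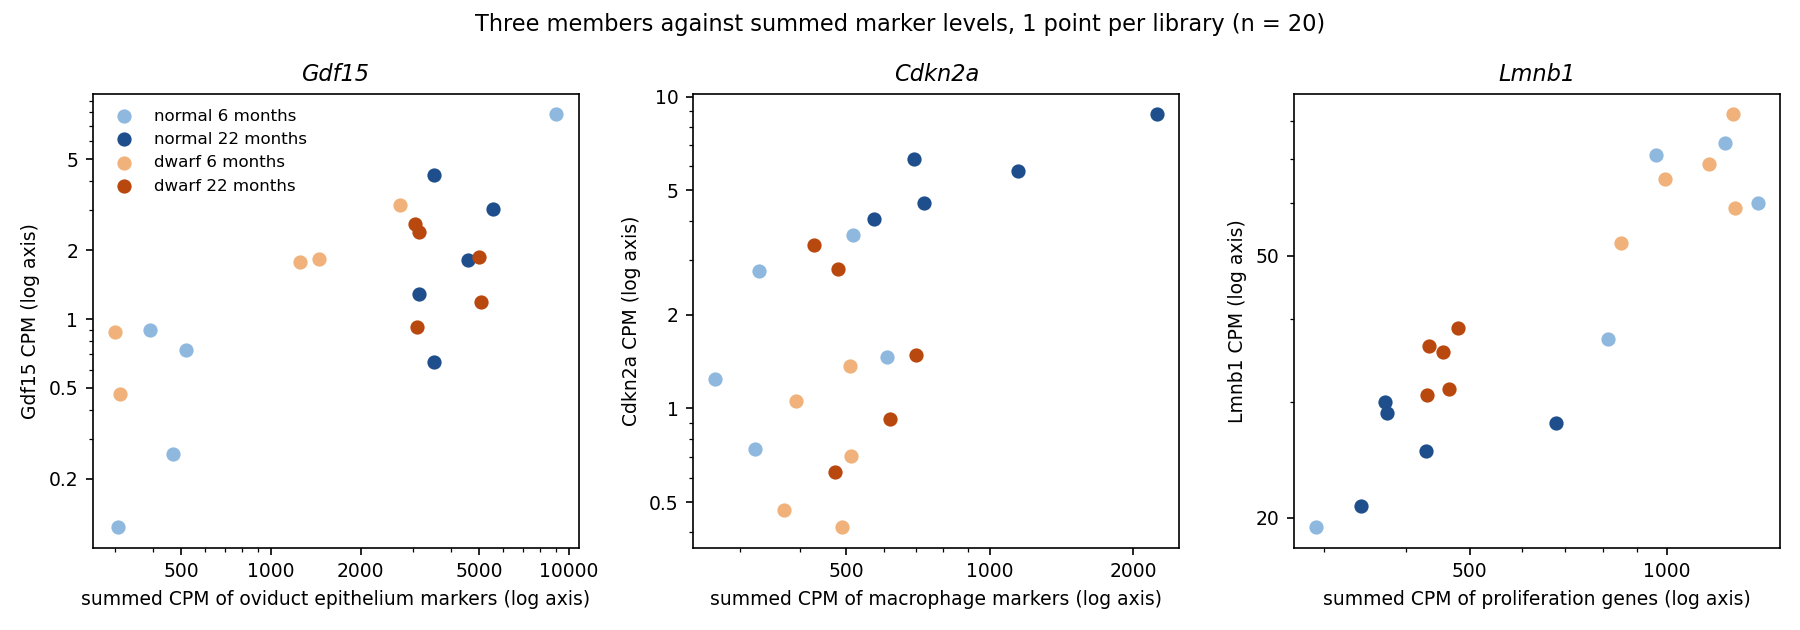
Gdf15 against the summed CPM of 10 oviduct epithelium markers, Cdkn2a against 12 macrophage markers, and Lmnb1 against 28 proliferation genes, all on log axes with 1 point per library (n = 20, coloured by group). The young normal library at 9067 CPM of oviduct markers has the highest Gdf15 level (7.86 CPM), the old normal library at 2242 CPM of macrophage markers has the highest Cdkn2a level (8.78 CPM), and the library at 291 CPM of proliferation genes has the lowest Lmnb1 level (19.4 CPM).

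Set side by side, the 7 genes gave 1 or 2 calls in each pairwise comparison. In normal mice with age 1 was called, where 6.75% of tested genes were, and 2 had an unadjusted p under 0.05, where 23.3% of genes did. In dwarf mice with age 1 was called and 5 had such a p, against 11.2% and 28.1% of genes. Between genotypes 2 and 3 did at 6 months, against 4.57% and 18.4%, and 2 and 2 at 22 months, against 3.81% and 18%. All 6 calls were toward a lower level, in old against young or in dwarf against normal ovaries. With age, calls over all tested genes were also lower more often than higher (4.14% against 2.6% in normal mice, 8.27% against 2.92% in dwarf mice). Between genotypes, 2.3% of all tested genes were called lower and 2.27% higher at 6 months, and 1.86% and 1.96% at 22 months. The median log2 fold change of the 7 genes was 0.06 in normal and 0.33 in dwarf mice with age, against -0.02 and 0.00 over all tested genes, and -0.43 and -0.34 in dwarf against normal mice at 6 and 22 months, against -0.04 at both ages over all genes. Of the 5 inhibitor genes, 0 were called higher with age by edgeR with all libraries; Cdkn2a had an unadjusted p of 0.00430 in normal and 0.0307 in dwarf mice, Cdkn2b 0.0169 and Cdkn1a 0.0411 in dwarf mice. DESeq2 called Cdkn2a higher with age in normal mice (adjusted p = 0.0170) and Cdkn2b in dwarf mice (adjusted p = 0.0402). The comparisons share groups of libraries, so their values are not independent of each other.

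**Figure D4:**
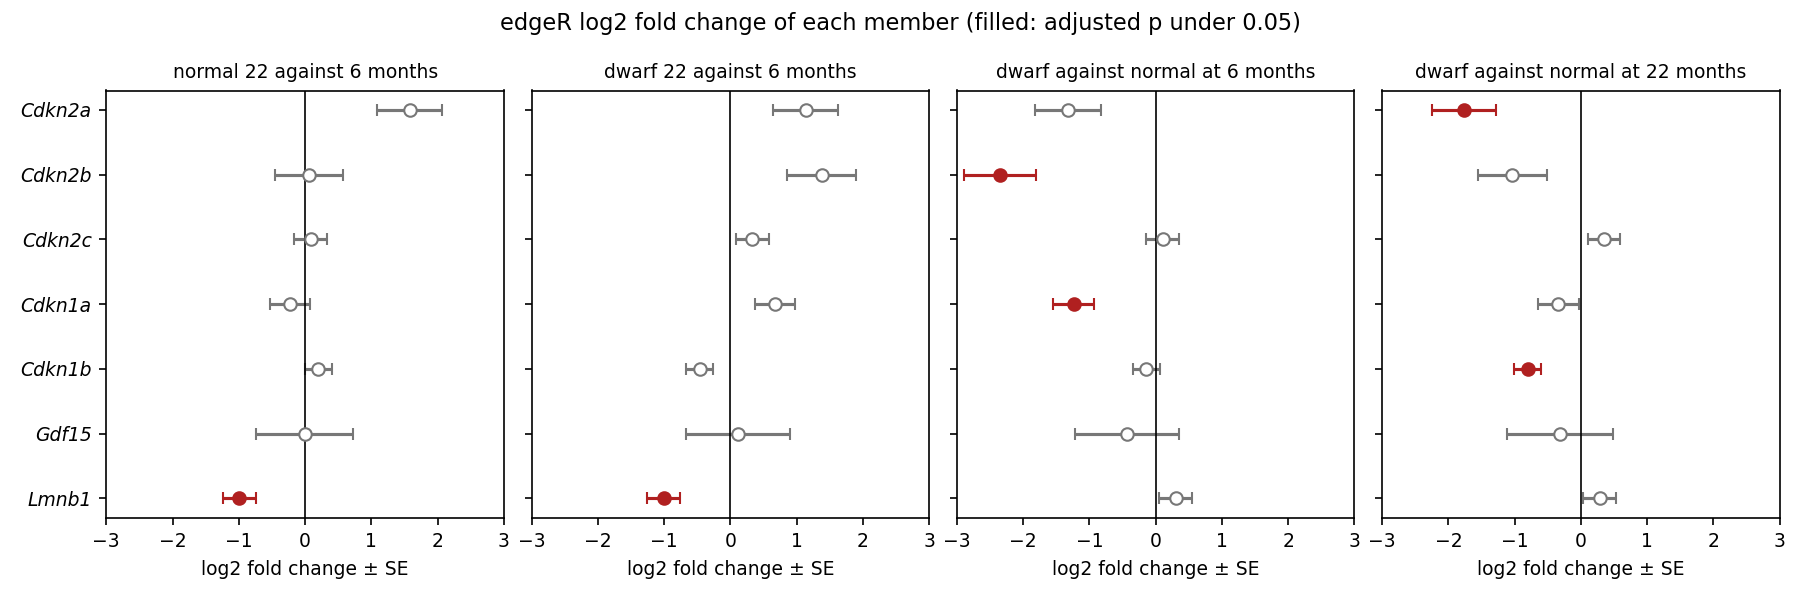
Log2 fold changes (± SE) of the 7 genes in the 4 pairwise comparisons, from edgeR's fit over 20 libraries; filled red points have an adjusted p under 0.05. The 6 filled points, Lmnb1 with age in both genotypes, Cdkn2b and Cdkn1a at 6 months and Cdkn2a and Cdkn1b at 22 months between genotypes, all lie below 0.

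Among genes of the G1 machinery, the calls with age were toward a lower level. Over all tested genes, 4.14% were called lower and 2.6% higher with age in normal mice, and 8.27% and 2.92% in dwarf mice. Of 8 G1 cyclins and CDKs, Cdk4, the kinase that INK4 proteins inhibit, fell in normal mice (log2 -0.59 ± 0.141, edgeR adjusted p = 0.0189) and dwarf mice (log2 -0.61 ± 0.141, adjusted p = 0.0107), and Ccne2, encoding cyclin E2, fell in normal mice; 0 rose. Of 11 genes of the RB family and E2F factors, 3 fell in normal mice (E2f1, E2f6 and E2f7) and 1 in dwarf mice (E2f1, at 22.1 and 9.52 CPM in young and old). Neither list had a call between genotypes with all libraries, where 4.57% and 3.81% of all tested genes were called at 6 and 22 months. When the 3 libraries that stand apart were left out, the G1 list had 1 rise and 4 falls in normal and 1 rise and 3 falls in dwarf mice, and the RB and E2F list 6 and 5 falls. That fit called 29.6% and 28.7% of all tested genes with age in normal and dwarf mice.

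Of 8 genes that control p27, the product of Cdkn1b, 3 fell with age in each genotype and 0 rose, with or without those 3 libraries: Skp2 and Cks1b, subunits of the ubiquitin ligase that marks p27 for destruction, and Foxo1, a transcription factor that activates Cdkn1b in other cells and is abundant in granulosa cells. Over all tested genes, 6.75% and 11.2% were called with age in normal and dwarf mice, and 29.6% and 28.7% without those 3 libraries. Foxo1 was at 347 and 121 CPM in young and old normal mice and at 527 and 212 CPM in dwarf mice. None of the 8 was called between genotypes with all libraries, and 1 was higher in dwarf mice at 22 months without the 3. Between genotypes at 6 and 22 months, 4.57% and 3.81% of all tested genes were called with all libraries, and 12.2% and 10.8% without the 3. Among 16 Polycomb genes, whose products repress Cdkn2a in many cells, Cbx2 fell with age in normal (log2 -1.52 ± 0.286, edgeR adjusted p = 0.00816) and dwarf mice (log2 -1.51 ± 0.283, adjusted p = 0.00368), Cbx7 rose in normal mice, and Ezh1 was higher in dwarf mice at 6 months. The Ezh1 call was lost without the 3 libraries that stand apart (log2 0.29, edgeR adjusted p = 0.0584). In that fit the Polycomb list had 2 rises and 2 falls with age in normal mice and 3 rises and 2 falls in dwarf mice. Between genotypes 1 was higher and 2 were lower in dwarf mice at each age.

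Targets of p53, gave few calls. Of 22 target genes other than Cdkn1a, 2 rose with age in normal mice, Pmaip1, which encodes the cell death protein NOXA (medians of 0.437 and 2.71 CPM in young and old, with 18.8 CPM in old replicate 2 and at most 3.65 CPM in the other 4), and the death receptor gene Fas. In dwarf mice Ccng1 rose (28.4 and 50.7 CPM) and Bax, a mediator of mitochondrial cell death, fell. Between genotypes Gadd45a, a growth arrest gene, was lower in dwarf mice at 6 months (medians of 22.1 against 45.3 CPM, with 103 CPM in normal replicate 2). Pmaip1 was lower at 22 months (medians of 0.799 against 2.71 CPM). The Gadd45a call was lost without the 3 libraries that stand apart (log2 -0.98, edgeR adjusted p = 0.0501). Over all tested genes, 6.75% and 11.2% were called with age in normal and dwarf mice, and 4.57% and 3.81% between genotypes at 6 and 22 months. The medians of the list were 0.39 and 0.01 with age in normal and dwarf mice on the log2 scale. With those 3 libraries left out, 7 rose and 1 fell in normal and 4 rose and 2 fell in dwarf mice, in a fit that called 29.6% and 28.7% of all tested genes.

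The integrated stress response, a pathway through which Gdf15 is induced, showed scattered calls. Of 16 genes, Atf3 and Slc7a11 rose and Shmt2 fell with age in normal mice, Shmt2 fell with age in dwarf mice, and Chac1, an enzyme that degrades glutathione, was lower in dwarf mice at 6 months (1.17 against 4.08 CPM); 0 were called between genotypes at 22 months. Over all tested genes, 6.75% and 11.2% were called with age in normal and dwarf mice, and 4.57% and 3.81% between genotypes at 6 and 22 months. Without the 3 libraries that stand apart, the list had 3 rises and 2 falls in normal and 2 rises and 4 falls in dwarf mice with age. That fit called 29.6% and 28.7% of all tested genes in these comparisons.

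Of 39 genes often secreted by senescent cells, 32 passed the filter. With age 3 rose and 1 fell in normal mice and 1 rose and 2 fell in dwarf mice. Over all tested genes, 6.75% and 11.2% were called in these comparisons with all libraries, and 29.6% and 28.7% without the 3 libraries that stand apart. Those that moved include Icam1, an adhesion molecule (medians of 15.6 and 44.3 CPM in young and old normal mice), Ccl8, a monocyte attractant (medians of 0.431 and 4.56 CPM, with 104 CPM in the lymphocyte-rich old replicate 3), and Vegfa, the vascular growth factor, which fell (198 and 132 CPM). In dwarf against normal mice 4 were lower and 1 higher at 6 months and 3 lower and 0 higher at 22 months, where 4.57% and 3.81% of all tested genes were called. Timp1, an inhibitor of matrix proteases, was lower at both ages (medians of 23.6 against 142 CPM at 6 months, where the normal range was 6.41 to 486 CPM, and 17.7 against 82.6 CPM at 22 months), and Vegfa was lower at 6 months (86.1 against 198 CPM). At 22 months Spp1, the matrix protein osteopontin made by macrophages among others, was at 5.17 against 26.2 CPM. The median log2 fold change over the 32 genes was 0.22 and 0.15 with age in normal and dwarf mice and -0.18 and -0.57 between genotypes at 6 and 22 months, against -0.02, 0.00, -0.04 and -0.04 over all genes. Macrophage markers (median -1.12 over 12) and T and B cell markers (median -2.17 over 11) were at lower levels in the same 22-month comparison, with 1 of each list called, and their part in these values was not tested. Without the 3 libraries that stand apart, 4 rose and 4 fell with age in normal mice, and 2 rose and 4 fell in dwarf mice. Between genotypes, 3 were higher and 5 lower in dwarf mice at 6 months, and 0 were higher and 7 lower at 22 months. In that fit 12.2% and 10.8% of all tested genes were called between genotypes. The median log2 fold change of the 32 genes in that fit was 0.69 and 0.18 with age in normal and dwarf mice. Between genotypes it was 0.30 at 6 months, where the direction changed, and -0.35 at 22 months.

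**Figure D5:**
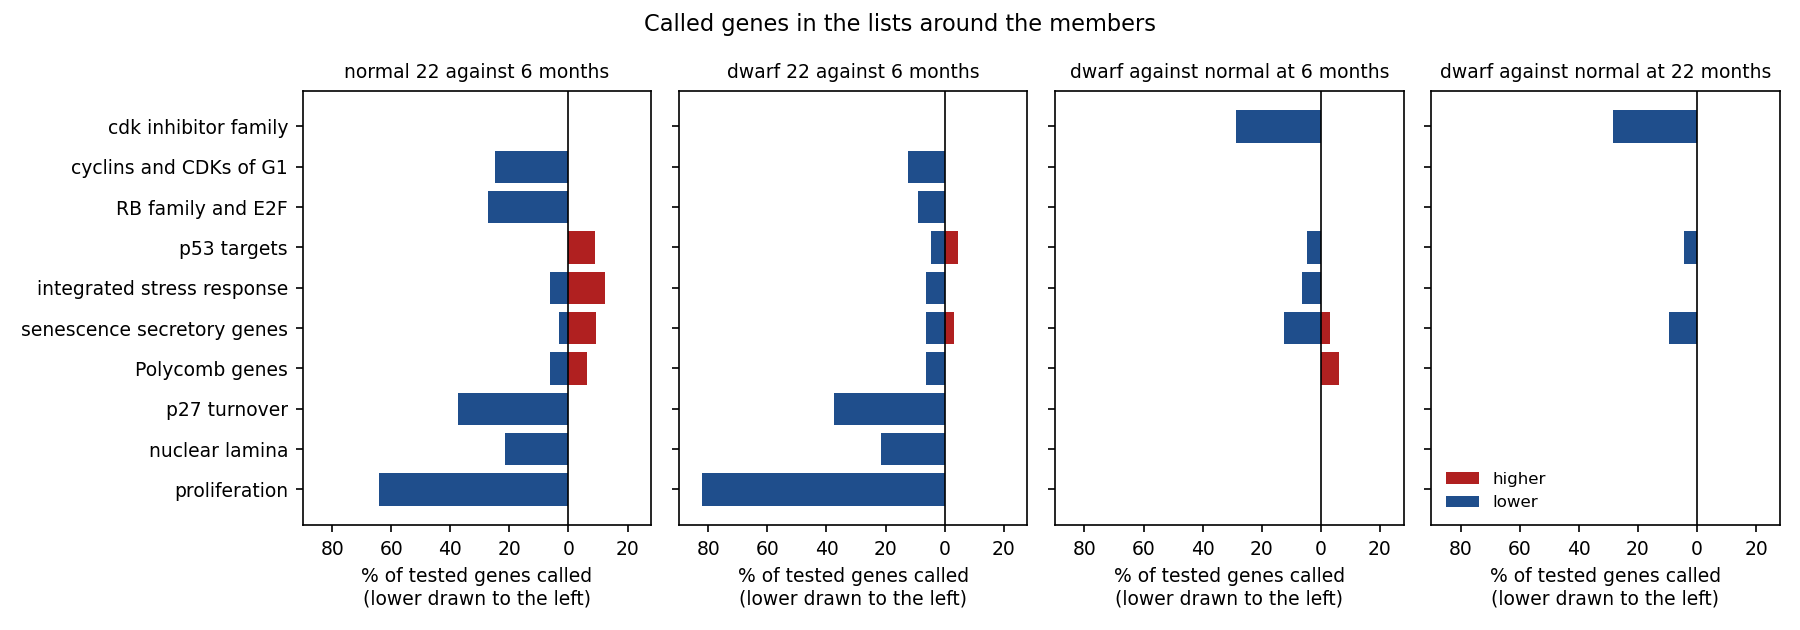
Percentage of the tested genes of each list called higher (red, to the right) or lower (blue, to the left) in the 4 pairwise comparisons, from edgeR over all 20 libraries. Proliferation genes show the longest bars (18 and 23 of 28 lower with age), and the inhibitor family, which holds 5 of the 7 genes described here with Cdkn1c and Cdkn2d, has calls between genotypes only (2 lower at each age).

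Each member's nearest genes in pattern were taken as the 3 with the smallest mean absolute difference of centred log2 CPM over the 20 libraries, among 15133 tested genes whose mean reached 1 CPM. For Cdkn2a they were Acp5, Cadm4 and Ikbke, with differences of 0.53 to 0.64, where the median gene was at 1.11. For Cdkn2b they were S100a6, Lgals3 and Cadm3 (0.42 to 0.50), for Cdkn2c Cpq, 5730455P16Rik and Lrrc17 (0.20 to 0.23), and for Cdkn1a Avil, Tagln2 and Rap1gap (0.29 to 0.30). Those of Cdkn1b were Pkm, Rmnd5b and Pex14 (0.20), those of Gdf15 Ccdc74a, Tppp3 and Endog (0.42 to 0.48), and those of Lmnb1 Umps, Snx18 and Wwc2 (0.18 to 0.20). Members that vary little between libraries, such as Cdkn2c and Cdkn1b, are close to many genes by this measure. The patterns are a description of libraries that differ in depth and in tissue makeup, and no test was made.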

How the data were processed

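Per the labels, frozen ovaries were extracted with Trizol and polyadenylated RNA was sequenced. Per the submitters' processing notes, TopHat2 2.0.10, TopHat, Bowtie2, HTSeq, DESeq and edgeR were used with mm10; what each tool did, the release of the annotation and whether counting used strand are not stated there. The authors deposited raw counts per gene in HTSeq format, with 1 file for each library; its 5 summary rows, 9.84 to 17.6% of each file's counts, were left out of totals and tests. Each of the 20 libraries was taken as 1 mouse; the labels do not say how animals were housed or processed together, so p-values measure the spread between these libraries.

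CPM were computed from plain library totals. Fold changes and p-values came from edgeR 4.0.16 in R 4.3.3: TMM scaling, filterByExpr (minimum count 10, minimum total 15, 16099 genes kept), a quasi-likelihood fit with robust dispersion over 4 groups, and Benjamini-Hochberg adjustment over all genes tested, with 0.05 as the threshold. The SE is the log2 fold change divided by the root of F, and is not an estimate that edgeR reports. Alternatives were RLE scaling and library totals, no filter, DESeq2 1.42.0, a block for the replicate number, fits of the compared groups alone, each library left out in turn, titles 21 to 23 (numbered apart from their groups) left out, 3 libraries that stand apart left out, and 2 alike libraries summed. The counts of each gene list without the 3 libraries were added after seeing the data. The members and lists were chosen with earlier results of these data known. The genes named are the 7 members, Cdkn1c and Cdkn2d, up to 3 called genes of smallest p from each list and comparison, and the 3 nearest genes in pattern of each member. Cyp19a1, Ovgp1, Figla, Csf1r, Cd163 and Mrc1 fall outside this rule in the sentences that name them and were named after their values were seen. Promoters came from RefSeq (GRCm38.p6); 10 starts matched 6 members, and Lmnb1 is named only. The number of per-sample columns not used was 0. A count of 0 allows up to 3 counts of the total.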

Additional observations from a re-analysis of the deposited data

Results flagged for a closer look

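Each of the 7 genes was searched in each group of 5 libraries for a library far from the others, by the gap to the nearest library over the range of the group. In 28 groups, 2 libraries stood out. Chance gives about 1 in 20 groups if values are normally distributed. That rate may not hold here, since the CPM were not log-transformed and Gdf15 rests on few counts in several libraries. Gdf15 was at 7.86 CPM in replicate 2 of the normal 6-month mice, with 0.123 to 0.892 CPM in the other 4 libraries; this library also had the highest oviduct marker sum, 9067 CPM. Cdkn1a was at 97.5 CPM in replicate 1 of the normal 22-month mice, with 36.3 to 49.9 CPM in the other 4; the same library had the highest Cdkn2b level of its group, 42.9 CPM. No member's response to age was shown to differ between genotypes.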

How the results depend on the processing

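Of the log2 fold changes of members under settings other than leaving out 1 library, 274 kept their direction and their side of the threshold, 11 lost a call, 5 gained one and 18 changed direction; with 1 library left out these numbers were 359, 26, 3 and 32. All 168 CPM levels of members moved by less than 1 SD. Leaving 1 of 5 libraries out cannot move a mean by 1 SD, so only the levels under TMM scaling could have come out otherwise. Another scaling moved the median of all genes by at most 0.0897 on the log2 scale. The cause of the changes below was not tested, except that fewer libraries or groups in a fit leave fewer degrees of freedom. Depth limits Gdf15 and Cdkn2a most, since several libraries hold few counts of them.

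Under scaling by library totals 0 members were called between genotypes at 22 months, the log2 difference of the age responses of Lmnb1 was 0.0657, and the age difference of Gdf15 in normal mice was 0.0214. With RLE scaling that Lmnb1 value was 0.0165. Without the filter on low counts 1 member was called at 22 months. When only the groups compared were fitted, 0 genes and 0 members were called with age in normal mice, 5169 genes and 3 members with age in dwarf mice, and 244 genes and 0 members between genotypes at 6 months; the age difference of Gdf15 in normal mice was 0.0313. The difference of the age responses uses all groups and has no such fit.

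DESeq2 called 1824 genes and 2 members with age in normal mice, 2739 genes and 2 members with age in dwarf mice, 1401 and 1232 genes between genotypes at 6 and 22 months, and 17 genes for the difference of the age responses. Its log2 values were 0.0167 for Gdf15 with age in normal mice and 0.0169 for the difference of the age responses of Lmnb1.

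With the replicate number as a block, 2 members were called with age in normal mice, Lmnb1 and Cdkn2a (log2 1.60, edgeR adjusted p = 0.0376), and Gdf15 was at 0.94 with age in normal mice, 0.23 between genotypes at 6 months and -0.55 for the difference of the age responses. The block called 1118 and 1904 genes with age in normal and dwarf mice, 672 and 560 between genotypes at 6 and 22 months, and 0 for the difference. The labels do not say that the numbers pair the libraries. Deviations of same-numbered libraries correlated above 0.1 in 2, 2, 3 and 0 of 5 pairs in the 4 comparisons. Their mean correlations were 0.0557, 0.0833, 0.189 and -0.0484, against -0.0122, -0.0184, -0.0519 and 0.0138 for other pairs. The highest, 0.719, was between genotypes at 6 months.

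Without the libraries whose title numbers are 21 to 23, 188 genes and 0 members were called with age in normal mice, 323 genes and 1 member between genotypes at 22 months, and the differences of the age responses were 0.24 for Cdkn2a and 0.0140 for Lmnb1. Without the 3 libraries that stand apart, 4848 and 4697 genes were called with age in normal and dwarf mice, 1991 and 1762 between genotypes at 6 and 22 months and 202 for the difference of the age responses; 2 members were called with age in normal mice and 1 between genotypes at 22 months. In that fit Gdf15 was at 2.48 with age in normal mice, 1.81 between genotypes at 6 months and -2.33 for the difference, and Lmnb1 at -0.0178 between genotypes at 6 months and 0.35 for the difference. With the 2 alike old dwarf libraries summed, 1107 genes were called with age in dwarf mice, 272 genes and 0 members between genotypes at 22 months, the Gdf15 age difference in dwarf mice was -2.13e-05 and the Lmnb1 difference of responses 0.0697.

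Leaving out each library in turn gave 481 to 4384 genes called with age in normal mice (lowest without old replicate 3, highest without young replicate 2), 802 to 1681 in dwarf mice, 369 to 1459 between genotypes at 6 months, 262 to 637 at 22 months and 0 to 1 for the difference of the age responses. Members called ranged from 0 to 3 and 0 to 2 with age in normal and dwarf mice, and from 0 to 2 and 0 to 1 between genotypes at 6 and 22 months. Log2 fold changes that changed direction ranged, with age in normal mice, from -0.43 to 0.31 for Cdkn2b, from -0.0585 to 0.36 for Cdkn2c and from -0.39 to 2.19 for Gdf15, and in dwarf mice from -0.0864 to 0.47 for Gdf15. Between genotypes at 6 months they ranged from -0.0260 to 0.36 for Cdkn2c and from -0.81 to 1.77 for Gdf15, and at 22 months from -0.42 to 0.00286 for Cdkn1a and from -0.53 to 0.0259 for Gdf15. For the difference of the age responses they ranged from -2.05 to 0.52 for Gdf15 and from -0.0831 to 0.19 for Lmnb1.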
